A study of Caenorhabditis elegans with 2 samples.

Results

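The starts of nuclear tRNA genes were examined for ChIP-seq summits of NHR-20, a nuclear hormone receptor, carrying a tag. All genes of the tRNA class on the 6 nuclear chromosomes of the C. elegans WBcel235 annotation were taken, without regard to binding, which gave 612 of 46890 nuclear genes. Each was scored for a peak summit within 300 bp on either side of its annotated start. Chromatin came from whole hermaphrodite L1 larvae of strain OP515, which carries unc-119(tm4063) III and the integrated transgene wgIs515, a single line expressing NHR-20 with a C-terminal GFP-FLAG tag. The larvae had been synchronized by bleaching and starvation at L1 and were collected 6 hours later. Tagged protein was precipitated from sonicated chromatin with an antibody against GFP in 2 biological replicates, which form 1 group and were both compared with the same control alignment. An immunoprecipitation from untagged larvae was not analysed here, so signal at tRNA genes that does not come from the tagged protein could not be measured.

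Nuclear hormone receptors are DNA-binding transcription factors with a ligand-binding domain, and the family is unusually large in nematodes. They are studied chiefly at genes of RNA polymerase II, whereas tRNA genes are transcribed by RNA polymerase III. Transcription of a tRNA gene is directed from within: an A box and a B box inside the gene bind the factor TFIIIC, which places TFIIIB just upstream of the start, and the polymerase stops at a run of T residues after the gene. Because the boxes encode conserved parts of the tRNA itself, copies of a tRNA gene can have identical sequences at many places in the genome and differ only in their flanks.

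The annotated genes carried these features. The B box core GTTCNANNC was present in 587 of 612 tRNA genes (95.9%), with a median start at position 53 of the gene for genes with a summit and 52 for those without. Within the first 100 bases it was present in 94.8% of tRNA genes and in 2.30% of the other nuclear genes. A run of TTTT lay within 40 bases after the end of 605 genes (98.9%). The A box core TGGCNNAGT matched only 61 genes (9.97%). A wider form, TNGNNNAGT, chosen after that count was seen and covering every match of the first, was found in 385 genes (62.9%) and, within the first 100 bases, in 63.9% of tRNA genes against 8.29% of other genes.

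The genes at 5 summits of high signal are shown for their internal promoter elements, and they include both single-copy genes and members of large identical families. The sequences are from the RefSeq genome, WBcel235, and are written 5′ to 3′ on the strand of the gene, with exact matches to the A box core TGGCNNAGT and the B box core GTTCNANNC in capitals. The Leu gene ZK822.t1 lies at chrIV:11928478-11928596 on the minus strand, the Ser gene C53C7.t1 at chrX:13046578-13046659 on the plus strand, and the Ile gene F57F5.t1 at chrV:12002176-12002260 on the plus strand. The Pro gene F46G11.t1 lies at chrX:5801472-5801543 and the Gln gene R04A9.t1 at chrX:410391-410462, both on the plus strand.
ZK822.t1: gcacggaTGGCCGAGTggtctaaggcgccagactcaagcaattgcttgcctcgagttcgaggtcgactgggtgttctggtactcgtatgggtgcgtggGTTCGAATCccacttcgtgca
C53C7.t1: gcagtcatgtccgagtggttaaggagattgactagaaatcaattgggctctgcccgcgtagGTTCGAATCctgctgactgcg
F57F5.t1: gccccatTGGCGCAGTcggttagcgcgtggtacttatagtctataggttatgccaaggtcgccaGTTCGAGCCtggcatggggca
F46G11.t1: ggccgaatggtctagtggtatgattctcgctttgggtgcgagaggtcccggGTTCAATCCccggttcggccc
R04A9.t1: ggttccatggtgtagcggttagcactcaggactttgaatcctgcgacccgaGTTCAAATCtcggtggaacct

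The summit itself lay upstream of each of these genes, 29 bp from the start of ZK822.t1, 52 bp from C53C7.t1, 15 bp from F57F5.t1, 124 bp from F46G11.t1 and 142 bp from R04A9.t1. The B box core is in all 5 and the strict A box core in ZK822.t1 and F57F5.t1. These 2 genes are single-copy and interrupted by an intron, while C53C7.t1 has 11 identical copies in the genome, F46G11.t1 has 24 and R04A9.t1 has 15.

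Identical genes did not all carry a summit, and the letters that differ between copies lie outside the gene. For 3 families, the 50 bases upstream of the copy with the strongest summit are set beside those of a copy with no candidate region in its window, in the same build and 5′ to 3′ on the strand of the gene. The Pro pair is F46G11.t1 at chrX:5801422-5801471 and R11G10.t2 at chrV:13507275-13507324, and 9 of 24 copies had a summit. The Thr pair is ZK563.t1 at chrX:3371494-3371543 and R04D3.t1 at chrX:13293142-13293191, with a summit at 10 of 15 copies. The Ala pair is F15G9.t2 at chrX:9743697-9743746 and C11E4.t1 at chrX:9622896-9622945, with a summit at 8 of 15 copies. The summit lies within the printed stretch at ZK563.t1, 30 bp upstream of its start. At F46G11.t1 it lies 124 bp upstream and is shared with F46G11.t2, and at F15G9.t2 it lies 96 bp upstream, inside the neighbouring gene F15G9.t1. The window of R11G10.t2 is 75.3% unique in the genome by 32-base stretches, against 82.5% for that of F46G11.t1. The last base of each run precedes the start of the gene, and no letters are marked.
F46G11.t1 (with): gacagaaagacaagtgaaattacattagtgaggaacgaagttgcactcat
R11G10.t2 (without): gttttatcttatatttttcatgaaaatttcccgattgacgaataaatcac
ZK563.t1 (with): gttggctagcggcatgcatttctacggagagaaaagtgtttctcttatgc
R04D3.t1 (without): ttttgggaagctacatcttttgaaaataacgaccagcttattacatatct
F15G9.t2 (with): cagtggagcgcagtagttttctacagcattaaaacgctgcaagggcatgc
C11E4.t1 (without): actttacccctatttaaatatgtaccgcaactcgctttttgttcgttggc

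A thresholded summit lay at the start of 287 of the 612 tRNA genes, or 46.9% (exact binomial 95% interval 42.9 to 50.9%), and 325 had none. The same window held a summit at 8.54% of the 46278 other nuclear genes and at 12.2% of protein-coding genes. The share of tRNA genes exceeded that of the other nuclear genes by 38.4 percentage points (95% interval 34.3 to 42.4). These intervals cover counting error only. Genes that share a summit or a sequence are not independent of each other, and with 1 group there is no contrast between conditions to test. The classes nearest to the tRNA genes were small nucleolar and small nuclear RNA genes. Small nucleolar RNA genes, which guide RNA modification, had a summit at 106 of 346 starts (30.6%), and small nuclear RNA genes, which encode spliceosomal and related RNAs, at 34 of 129 (26.4%). The interval of neither class, 25.8 to 35.8% and 19 to 34.8%, reached that of the tRNA genes. Genes of miRNAs had one at 28 of 261 starts (10.7%) and piRNA genes at 193 of 15363 (1.26%). Of the 20 annotated nuclear rRNA genes 0 had a summit, in windows where a median of 9.12% of 32-base stretches occur once in the genome.

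The 6423 regions of the thresholded list were called by the authors from both replicates, and the thresholded summits in tRNA windows numbered 272, or 4.24% of them. Bases within 300 bp of a thresholded summit make up 3.76% of the genome. That figure belongs beside the 46.9% of tRNA starts with a summit, not beside the 4.24%. The part of the genome inside tRNA windows is not given here. Because neighbouring genes can share a region, the strongest summits of the 287 genes were 265 distinct positions, with 22 pairs of genes sharing one. Of these pairs 15 were on opposite strands, 14 encoded the same amino acid and 13 were on X. When overlapping windows were merged, 261 of 514 loci (50.8%) held a summit.

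The summits stood close to the start of the tRNA gene. Relative to that start the median position was 16 bp upstream, written −16, with quartiles of −30.5 and 8 bp. The summit lay upstream at 203 genes and at or downstream of the start at 84. It was within 50 bp of the start at 229 genes (79.8%) and within 100 bp at 260 (90.6%). In the 50 bp upstream of the start there were 27.8 summits per 100 tRNA genes, against 1.41 per 100 protein-coding genes. Small nuclear RNA genes also had their densest bin there, with 13.95 per 100, and small nucleolar RNA genes had 9.83. Protein-coding starts had their densest bin 150 to 200 bp upstream, with 2.44 summits per 100. Small nucleolar RNA genes had theirs at 50 to 100 bp upstream, with 13.9 per 100.

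**Figure D1:**
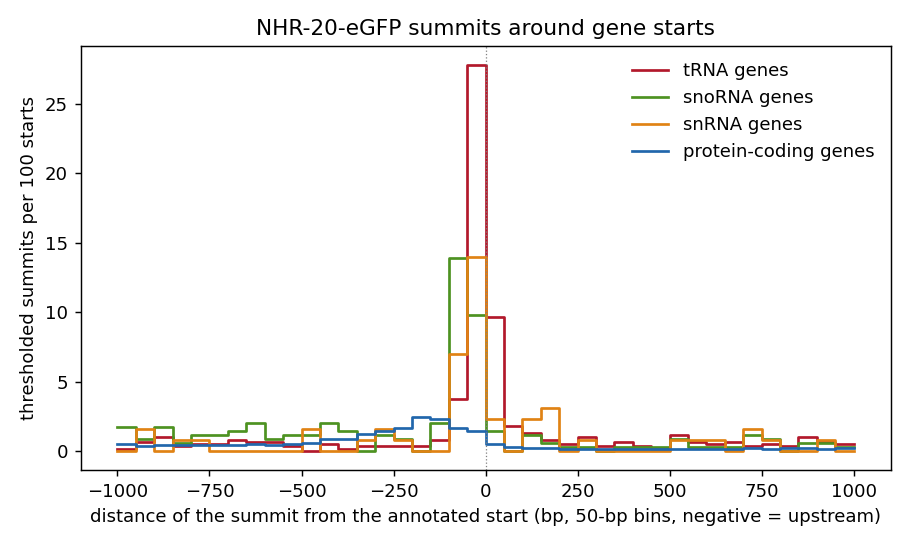
Thresholded NHR-20-eGFP summits per 100 annotated starts (y axis) by distance from the start in bp, in 50-bp bins with negative values upstream (x axis), for 4 classes of gene. The tRNA curve peaks at 27.8 in the bin just upstream of the start and is at 9.64 in the bin just downstream. The small nuclear RNA curve also peaks in the bin just upstream, at 13.95, while the protein-coding curve stays at or below 2.44.

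Few summits were far from their gene. Of the 14 genes whose strongest summit was beyond 150 bp, 9 had another tRNA start within 600 bp. The members nearest the window's edge were the Met gene C25F6.t1, with a summit 295 bp away and a signal value of 151.1, and the Val gene C16H3.t2, with one at 294 bp and 88.9. Just outside were the Met gene C25F6.t3, with the closest summit at −339 bp, and the His gene F28H6.t4, with the closest at 342 bp.

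Signal values at tRNA starts were close to the middle of the list. The signal value is the number the authors' peak caller gave each region relative to the control, and it can be compared within a list only. Over the 265 distinct summits the median was 177.9, with quartiles of 126.2 and 242.3 and a range of 86.0 to 685.2. The whole list had a median of 169.5 and reached 2711. Above that median were 141 of the 265 (53.2%), and 23 were among the 1000 strongest regions. The strongest was at rank 318. Distinct strongest summits had a median of 192.4 at protein-coding starts, 260.2 at small nuclear RNA genes and 317.6 at small nucleolar RNA genes, so the tRNA genes had the highest share with a summit and the lowest of these 4 medians.

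The 10 genes with the strongest signal shared 8 summits and 7 of them were on X. C28G1.t1, a Glu gene in an exon of the protein-coding gene C28G1.2, had the highest value, 685.2 in the pooled list, 418.5 in replicate 1 and 270.0 in replicate 2. Its window held 2 summits, and the stronger was 108 bp upstream of the tRNA start. A protein-coding start lies 97 bp from that tRNA start. The stronger summit is also in a protein-coding promoter window, 1000 bp upstream to 300 bp downstream of a transcript start. Which of the genes the summit belongs to was not tested. The single-copy Leu gene ZK822.t1 had 653.1 in the pooled list, 448.7 in replicate 1 and 200.2 in replicate 2, with the summit 29 bp upstream. In replicates 1 and 2 the region at C28G1.t1 ranked 342 and 306, and that at ZK822.t1 284 and 541.

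The Asn gene F41D9.t3, in an intron of sulp-3 on the opposite strand, had 644.8 in the pooled list, 424.3 in replicate 1 and 213.5 in replicate 2. The Ser genes C53C7.t1 and C53C7.t2 lie 131 bp apart by their starts, on opposite strands. They share a summit of 628.5, with 394.3 and 236.2 in the replicates. The Ile gene F57F5.t1 had 622.5, with 384.2 in replicate 1 and 235.1 in replicate 2, at a summit also in a protein-coding promoter window. In the replicates' own lists these regions ranked between 331 and 472.

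The Arg gene F13G11.t1 differed from these: its value was 620.8 in the pooled list and 405.5 in replicate 1, but the summit was 268 bp downstream of the start and replicate 2 had no candidate summit in the window. The Gly gene M02F4.t1 and the Glu gene M02F4.t2, on opposite strands and 117 bp apart by their starts, share a summit of 599.6, with 385.6 and 209.8 in the replicates. The Pro gene F46G11.t1 had 566.5, with 382.4 and 192.2 in the replicates, and its summit, shared with F46G11.t2, was 124 bp upstream.

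The genes were then compared by the amino acid of their tRNA, which the annotation gave for 607 of the 612. The anticodon was not analysed here. The other 5 genes, with no product given, had 0 summits. Apart from selenocysteine, whose single gene had a summit, the share ranged from 31.6% for Tyr (6 of 19) to 64.5% for Val (20 of 31). The 95% interval of every one of the 21 amino acids held the overall share of 46.9%, and in none of the 210 pairs of amino acids were the intervals separate. All but selenocysteine had a lower bound above the 8.54% of the other nuclear genes. Overlap of intervals is no test of a difference, and differences between single amino acids were not tested.

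**Figure D2:**
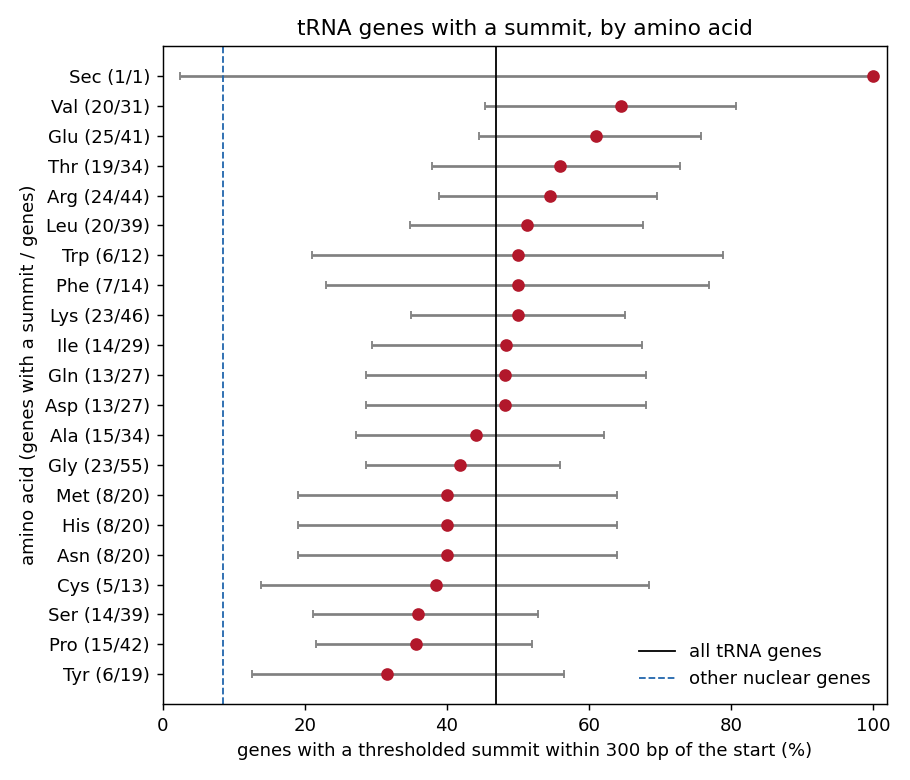
Percentage of tRNA genes with a thresholded summit within 300 bp of the start (x axis) for 21 amino acids (y axis, genes with a summit and all genes in brackets). Points are shares and bars exact binomial 95% intervals for counting error, the solid line is all tRNA genes at 46.9%, and the dashed line the other nuclear genes at 8.54%. Every bar crosses the solid line.

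High shares were also found for Glu (25 of 41, 61.0%), Thr (19 of 34, 55.9%) and Arg (24 of 44, 54.5%). Low shares were found for Pro (15 of 42, 35.7%), Ser (14 of 39, 35.9%) and Cys (5 of 13, 38.5%). Gly, the amino acid with most genes, had a summit at 23 of 55 (41.8%, interval 28.7 to 55.9%). Lys had one at 23 of 46 (50%), and Met, whose tRNAs include the initiator, at 8 of 20 (40%).

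Where a summit was present, its signal spread widely within an amino acid. Pro had the highest median of those with more than 1 gene, 327.9, over values from 94.9 to 566.5 that came from 12 distinct summits at 15 genes. Trp had the lowest, 108.0, over 91.4 to 247.4. Its strongest gene was sup-7, known from amber suppressor alleles, with 247.4 in the pooled list, 146.7 in replicate 1 and 97.8 in replicate 2. Leu had a median of 218.1 over 95.7 to 653.1, and His 121.4 over 89.8 to 395.6. Differences between these medians were not tested.

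**Figure D3:**
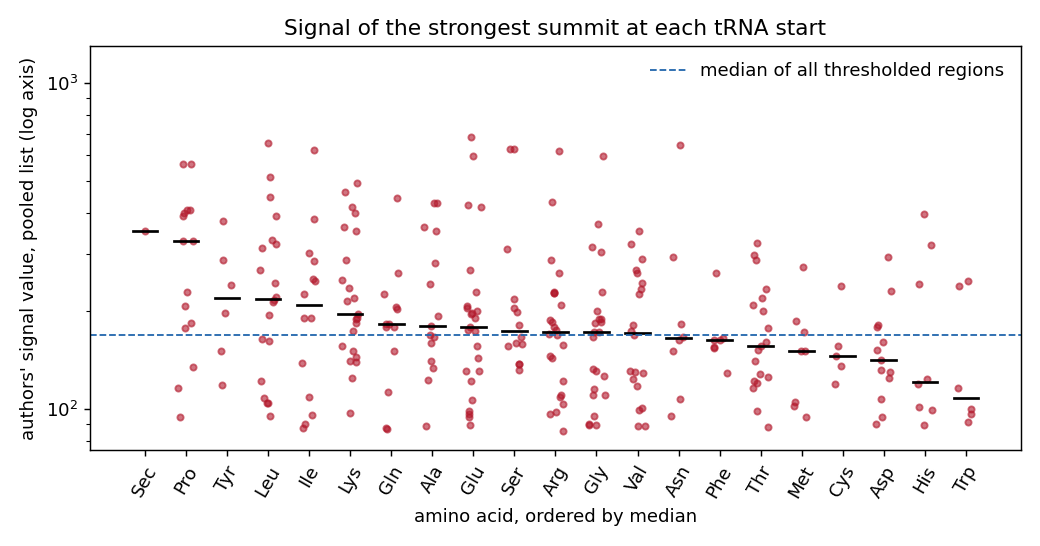
The authors' signal value of the strongest thresholded summit at each of the 287 tRNA genes with one (y axis, log scale), by amino acid ordered by median (x axis). Points are genes, black lines medians, and the dashed line is the median of the whole list, 169.5. Pro, at 327.9, has the highest median among amino acids with more than 1 point, and Trp, at 108.0, the lowest.

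The selenocysteine tRNA is made from 1 gene, K11H12.t1, at chrIV:658181-658266 in an intron of K11H12.8. Selenocysteine tRNA differs from other tRNAs in its long acceptor arm and reads a UGA codon. The gene had a summit 55 bp upstream of its start, with a signal value of 351.3 in the pooled list, 228.7 in replicate 1 and 127.1 in replicate 2. The summit also lies in the promoter window of a protein-coding transcript (1000 bp upstream to 300 bp downstream of its start). All of the gene's window is unique in the genome by 32-base stretches.

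The strongest genes of other amino acids were also mostly on X. For Ala this was F15G9.t1, in an intron of him-4, whose summit of 429.2 is shared with F15G9.t2, with 289.6 in replicate 1 and 131.5 in replicate 2. For Gln it was R04A9.t1 at 445.7, with 279.4 and 180.7, at a summit also in a protein-coding promoter window. For Lys it was C33G3.t2 at 492.3, with 322.4 and 172.0. For Tyr it was R11.t1 at 377.0, with 215.6 and 160.7, and for His C06G1.t1 at 395.6, with 267.9 and 128.6.

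The remaining strongest genes were lower. They were R04D3.t2 for Val at 351.2, R01H5.t1 for Thr at 323.1, F52H2.t1 for Asp at 292.8, C02F12.t1 for Met at 272.5, T28B4.t1 for Phe at 260.9 and C37A2.t1 for Cys at 239.6. C37A2.t1, in an intron of cye-1 on chromosome I, was the only one of these off X. The summit of F52H2.t1 is also in a protein-coding promoter window.

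Identical copies of a gene did not behave alike. The 612 genes have 200 distinct sequences, of which 143 occur once and 57 are in families of 2 to 29 identical copies. In 42 of the 57 families some copies had a summit and some did not, in 9 every copy had one and in 6 no copy had one. Among the 20 families of 10 or more copies the share ran from 27.3% (a Ser family, 3 of 11) to 80% (an Arg family, 8 of 10, all on X). The largest family, of Gly, had a summit at 14 of 29 copies.

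Single-copy genes had the lowest share among the classes of copy number. The share was 30.1% for the 143 single-copy genes (43 genes, interval 22.7 to 38.3%), 56.7% for genes with 2 to 4 copies (38 of 67), 45.9% for 5 to 9 copies (39 of 85) and 52.7% for 10 or more (167 of 317). Genes of families with 5 or more copies exceeded single-copy genes by 21.2 percentage points (95% interval for counting error 11.6 to 30.1). The median signal was 184.5 at single-copy genes with a summit and 178.9 at genes with 5 or more copies. Among single-copy genes, 39 of the 130 with the B box core had a summit (30%) and 4 of the 13 without it (30.8%). Over all genes the counts were 280 of 587 with the core (47.7%, interval 43.6 to 51.8%) and 7 of 25 without it (28%, interval 12.1 to 49.4%), and among genes with 2 or more copies 241 of 457 and 3 of 12.

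Among single-copy genes, those with an intron had a summit at 9 of 19 (47.4%) and those without at 34 of 124 (27.4%). Over all copy numbers the 29 intron-containing genes had a summit at 13 (44.8%) and the 583 others at 274 (47.0%). The median signal was 285.7 at the former and 174.8 at the latter, with ranges of 108.2 to 653.1 and 86.0 to 685.2.

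The 50 bases upstream of the start differed in base composition between the 2 sets of genes. Their median A+T content was 54% (quartiles 50 and 60) at genes with a summit and 62% (54 and 68) at those without. In classes chosen after these medians were seen, the share with a summit was 59.3% below 50% A+T (70 of 118), 62.2% from 50 to under 60% (140 of 225), 33.3% from 60 to under 70% (66 of 198) and 15.5% at 70% or more (11 of 71). The shares of the 2 lower classes had intervals above those of the 2 higher classes.

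The same direction was seen among genes whose own sequence is identical. In the 42 families with both kinds of copy, the copies with a summit had the lower median upstream A+T content in 29 families, the higher in 11 and the same in 2. Single-copy genes had a summit at 33 of 76 (43.4%) below 60% A+T and at 10 of 67 (14.9%) above. Genes with 2 or more copies had one at 177 of 267 (66.3%) and 67 of 202 (33.2%). The median upstream A+T content was 58% in both of these copy classes. At protein-coding starts the medians were 70% with and 68% without a summit, but the share with a summit was 15.5% below 60% A+T (573 of 3695) and 11.5% at 60% or more (1868 of 16278). At protein-coding starts the medians and the shares thus pointed in opposite directions. A lower share at higher A+T content was seen there only by the 60% cut, which was chosen on the tRNA genes. Whether protein-coding and tRNA genes differed in this was not tested. The part of base composition in these shares was not tested.

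How much of a window is unique in the genome moved with the presence of a summit too. Of the 85 tRNA genes with under 80% of the window's 32-base stretches found once, 16 had a summit (18.8%), against 271 of 527 (51.4%) of the others. Within the 42 families with both kinds of copy, the copies with a summit had the higher median uniqueness in 21 families, the lower in 19 and the same in 2. How reads matching several places were treated is not given in the sources used here. Among the 527 genes in mostly unique windows, the share with a summit was 63.9, 65.0, 37.3 and 16.0% over the 4 classes of rising A+T content.

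**Figure D4:**
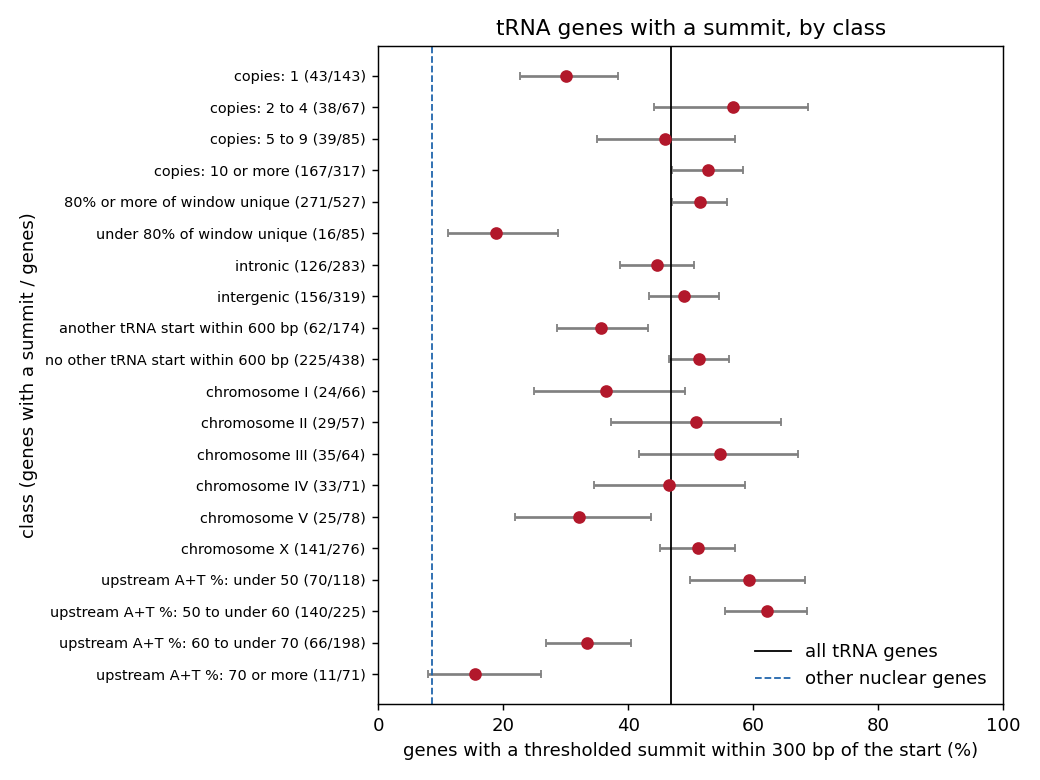
Percentage of tRNA genes with a thresholded summit (x axis) by number of identical copies, uniqueness of the window, location, neighbouring tRNA genes, chromosome and A+T percentage of the 50 bases upstream (y axis, genes with a summit and all genes in brackets). Points are shares and bars exact binomial 95% intervals for counting error, with lines for all tRNA genes at 46.9% and other nuclear genes at 8.54%. The whole bar lies left of the solid line for single-copy genes, windows under 80% unique and genes with 60% or more A+T upstream. The same holds for genes with another tRNA start within 600 bp and for chromosome V.

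The X chromosome holds 276 of the 612 tRNA genes (45.1%), and 141 of them had a summit (51.1%) against 146 of 336 on the autosomes (43.5%). The difference of 7.64 percentage points had an interval of −0.54 to 15.7 and so included 0. Among autosomes the share was 54.7% on III, 50.9% on II, 46.5% on IV, 36.4% on I and 32.1% on V, with overlapping intervals. Of the 1396 thresholded summits on X, 131 (9.38%) were at tRNA starts, against 141 of 5027 (2.81%) on the autosomes. These percentages also depend on the number of tRNA genes, 276 on X and 336 on the autosomes, so they are no measure of preference for X. Nuclear genes other than tRNA had a summit at 12.44% of starts on X and 7.99% on the autosomes. For protein-coding genes the shares were 12.05% on X and 12.25% on the autosomes.

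Crowded tRNA genes had a lower share with a thresholded summit, but not with a candidate region. Genes with another tRNA start within 600 bp had a summit at 62 of 174 (35.6%), and those without at 225 of 438 (51.4%). A candidate was present at 134 of the 174 crowded genes (77.0%) and 325 of the 438 isolated ones (74.2%). Among isolated genes the share with a thresholded summit was 61.3% on X (103 of 168) and 45.2% on the autosomes (122 of 270), a difference of 16.1 points. Among crowded genes it was 35.2% on X (38 of 108) and 36.4% on the autosomes (24 of 66). Of the 85 genes in windows under 80% unique, 46 had another tRNA start within 600 bp.

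Location inside another gene was compared next. Intronic tRNA genes had a summit at 126 of 283 (44.5%), intergenic ones at 156 of 319 (48.9%) and exonic ones at 5 of 10. The difference between intronic and intergenic genes was −4.38 percentage points, with an interval of −12.5 to 3.83 that included 0. It was 1.64 points, of the opposite sign, when summits in protein-coding promoter windows were left out. On X the shares were 52.6% intronic (50 of 95) and 50% intergenic (90 of 180), and on the autosomes 40.4% (76 of 188) and 47.5% (66 of 139). On the strand of the host gene the share was 42.9% (69 of 161) and on the opposite strand 46.7% (57 of 122). The strongest intronic genes, after F41D9.t3, were R04A9.t1 at 445.7 in hrg-11.4, the Arg gene F47G6.t1 at 431.3 in spe-15, and F15G9.t1 and F15G9.t2 at 429.2 in him-4.

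Most of these summits were not in a promoter window of a protein-coding gene, defined as 1000 bp upstream to 300 bp downstream of a transcript start. Of the 265 distinct strongest summits 62 were in one (23.4%), against 56.2% of the whole list. The starts of all annotated transcripts were used for these windows. By the start of the gene alone, the share of tRNA genes with a summit was 47.6% with a protein-coding start within 1000 bp (88 of 185) and 46.6% without (199 of 427). With every promoter summit left out, 218 tRNA genes (35.6%) kept a summit.

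Weaker regions were present at many of the other tRNA genes. The pooled candidate list of 30000 regions, which includes background by design, had a summit at 459 tRNA starts (75%) and at 24.3% of other nuclear genes. The 172 genes with only a candidate had signal values from 17.5 to 85.9, with a median of 43.3. The remaining 153 had no candidate.

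The 2 replicates were compared by their own candidate lists. Of the 272 thresholded summits at tRNA starts, 240 (88.2%, interval 83.8 to 91.8%) had a summit within 200 bp among the 6423 strongest regions of both replicates, against 80.2% of summits elsewhere. The thresholded list was itself made from these replicates and both shared a control, so these shares describe the list. Spearman's rho between the replicates' signal values was 0.78 over 269 of the 272 summits. Genes with a thresholded summit had a median of 115 in replicate 1, over 45.3 to 610.6, and of 61.6 in replicate 2, over 13.7 to 270.0. Those without had medians of 29.8 and 18.2 where a candidate was present, at 177 and 144 of the 325 genes.

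**Figure D5:**
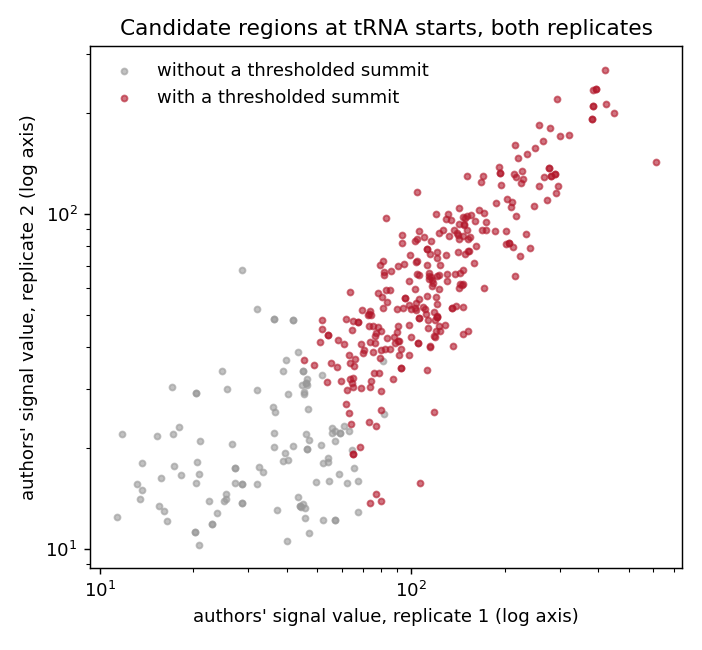
The authors' signal value of the strongest candidate region at each tRNA start in replicate 1 (x axis, log scale) and replicate 2 (y axis, log scale), for tRNA genes with a candidate in both. Red points have a thresholded summit and grey points do not. The point at 610.6 in replicate 1 and 143.2 in replicate 2 is C18A11.t2.

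Among tRNA genes with a thresholded summit, the ranks in the 2 replicates differed most, on a log scale, at 3 genes. The Arg gene C18A11.t2 had 610.6 in replicate 1, at rank 109, and 143.2 in replicate 2, at rank 989. The replicate 1 summit lay 281 bp from the start and the replicate 2 summit 127 bp from it, so they are not the same position. The Val gene T28D6.t1 had 106.8 at rank 3388 and 15.7 at rank 15502, and the Arg gene C04F2.t1 80.3 at rank 4628 and 13.9 at rank 18625. At both of these the replicate 1 region was the stronger one.

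The sequence AGGTCA, the core half-site bound by many nuclear hormone receptors, was sought on both strands across the whole window of each gene. It was present at 19.5% of tRNA genes with a summit, 17.5% of those without, 13.4% of other nuclear genes and 15.3% of other genes with a summit. The window includes the tRNA gene itself, and the Lys gene C33G3.t2, of 14 identical copies, holds AGGTCA inside the gene. Matches inside tRNA genes were not counted apart. A match to these letters describes the sequence and says nothing of binding there.

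The genes that make and mature tRNAs were examined at their own promoters. Of 25 listed genes 24 were found in the annotation by symbol, and 10 had a thresholded summit in the promoter window (41.7%), against 20.6% of all protein-coding genes. Of these 10, 5 were subunits shared by the nuclear RNA polymerases and so not particular to tRNA genes. Among the other roles, 2 of 4 polymerase III subunits, 0 of 5 initiation factors and 0 of 1 repressor had one. So did 1 of 2 processing and export genes and 2 of 7 modification genes. All 5 listed subunits shared by the nuclear RNA polymerases had one, at 192.4 for rpb-12, 154.3 for rpb-8, 93.0 for rpb-6, 92.0 for rpb-5 and 86.6 for rpb-10. The list minimum is 86.0, so 3 of the 5 were near the threshold. Of the 10 summits, 8 also lay in the promoter window of another gene, all but those of rpb-5 and rtcb-1. How often promoter summits in general are shared in this way is not given here. That of rpb-8 is shared with rars-1, an arginyl-tRNA synthetase.

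Of the 4 genes for subunits found only in RNA polymerase III or in polymerases I and III, rpc-1, the largest subunit, had a summit of 140.7, shared with C42D4.18, and rpac-19 one of 160.7, shared with tbg-1. The other members, rpc-2 and rpac-40, had none. None of the 5 listed initiation factors, brf-1 and tbp-1 of TFIIIB and tftc-1, tftc-3 and tftc-5 of TFIIIC, had a summit, nor did mafr-1, the repressor of RNA polymerase III. With 20.6% of all protein-coding genes having one, 5 genes are too few to tell a lower share. Among processing and modification genes, rtcb-1, the ligase that joins the exons of spliced tRNAs, had 152.8, and the Elongator subunits elpc-2 and elpc-4 had 146.2, shared with taf-7.2, and 364.4, shared with C26B2.7. The Elongator subunits elpc-1 and elpc-3, the nuclear exporter xpo-3, the thiolation gene tut-1 and the methyltransferases nsun-2 and alkb-8 had none. The median of the 10 signals was 149.5, against 182.3 for all promoter summits.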

How the data were processed

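The authors deposited regions of NHR-20-eGFP ChIP-seq on ce11, each with a summit and a signal value relative to a control, per the notes deposited with the samples. The sources used here do not give the aligner, the peak caller, the IDR threshold or how repeated reads were treated, and the lists carry no read totals, so the depth behind each signal is unknown. The thresholded list held 6423 regions, and the pooled list and each replicate's list 30000 candidates. Lists on ce10 were not used.

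Gene positions came from Ensembl WBcel235, amino acids and sequences from RefSeq, matched by WormBase identifier; 22 mitochondrial tRNA genes were left out. The strongest summit within 300 bp of each start was scored, and genes of other classes were scored alike. Shares have exact binomial (Clopper-Pearson) 95% intervals, and differences of shares combine them. Replicate matches were within 200 bp among each replicate's 6423 strongest regions. Copies are genes of identical sequence, and uniqueness is the share of 32-base stretches in the window found once in the genome on either strand. No test was made, since there is 1 group of 2 replicates.

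Named were the 10 strongest genes, the strongest of each amino acid, the 5 strongest intronic genes and 2 on each side of the window's edge. Also named were the pathway genes and the 3 genes with a summit whose replicate ranks differed most on a log scale. The members and lists were chosen with earlier results of these data known. Scoring was tested on simulated data. Python 3.11.15, pandas 2.3.3, numpy 2.4.6 and scipy 1.17.1 were used.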

Additional observations from a re-analysis of the deposited data

How the results depend on the processing

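No paired analysis was possible because there is 1 group. Windows of 150 or 500 bp, centring on the middle of the gene, overlap of whole regions and merging of overlapping windows kept every count and share of tRNA genes within 1.5 times or the interval of the reported value. With only regions above the list's median signal, 154 genes (25.2%) had a summit, 20.1 percentage points above other genes, the excess of families of 5 or more copies fell to 10.8 points, the median signal was 239.4 and the median position −24 bp. With all candidates, 459 genes (75%) had one, 50.7 points above other genes, with a median signal of 122.3. Of the 272 thresholded summits at tRNA starts, 269 (98.9%) had a match among all candidates of both replicates. That share does not cover the genes with only a candidate. Leaving out summits in protein-coding promoter windows gave 35.6%, 33.7 points above other genes, and turned the intronic minus intergenic difference to 1.64 points. Each distinct sequence was also counted once, as having a summit if any of its copies did, which gave 94 of 200 (47.0%). These were 43 of the 143 single-copy sequences, 9 families with a summit at every copy and 42 with one at some copies. Because 1 copy is enough, this share is not like the share of genes. In 2 settings chosen after seeing the data, windows at least 80% unique gave 51.4%, 42.5 points above other genes, and genes with no other tRNA start within 600 bp gave 51.4%, 42.8 points above other genes, with X 16.1 points above the autosomes. Without replicate 1 or 2 in turn, the count was 284 to 287, the share 46.4 to 46.9%, the excess over other genes 37.9 to 38.3 points, X minus autosomes 8.29 to 9.19, intronic minus intergenic −5.05 to −4.11, large families minus single copies 21.2 to 22.8 and the median position −21 to −16 bp. For single amino acids, 193 of 231 recounts stayed within 1.5 times the reported count and 38 did not. The cause of these changes was not tested, and the settings also differ in how many regions or genes they hold. With unknown read depth, a missing summit shows no absence of binding.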
